A study of Homo sapiens with 6 samples.

Results

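The Hippo pathway was described here through 10 genes measured in OVCAR3 cells, a line of high-grade serous ovarian adenocarcinoma, after treatment with THZ531. The genes were YAP1 and WWTR1 (which encodes TAZ), TEAD1, TEAD3, TEAD4, LATS1, LATS2, AMOTL1, AMOTL2 and ANKRD1. Each was found by its symbol as exactly 1 locus among the 47577 loci of the expression table, of which 26793 carry a symbol, by a rule that uses no measured value. All 10 passed the minimum for expression, a normalized read count of 10 or more in 3 or more libraries of 6, which 17568 loci passed. PolyA plus RNA was sequenced from 3 cultures that received DMSO, the vehicle, and from 3 cultures that received 200 nM THZ531, all for 6 h. THZ531 is a covalent inhibitor of CDK12 and CDK13, the kinases that phosphorylate the C-terminal domain of RNA polymerase II during elongation. The sample titles give THZ531, while the protocol text of the same samples gives the related compound THZ1 at this dose, and the titles were followed. All 6 libraries come from the same line, so the values describe a single genetic background grown in medium with serum.

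The Hippo pathway is a kinase cascade that restrains growth. The kinases STK3 and STK4 with their adaptors activate LATS1 and LATS2, which phosphorylate YAP and TAZ and keep them out of the nucleus. When the cascade is off, YAP and TAZ enter the nucleus, bind the TEAD factors on DNA and switch on target genes such as CCN1, CCN2 and ANKRD1. Several targets, LATS2 and AMOTL2 among them, encode inhibitors of YAP and TAZ, so the pathway contains negative feedback. Much of this control acts on proteins, which the RNA measurements do not reach.

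The libraries held 53054048 to 70986130 reads assigned to loci. The deposited values are read counts divided by a size factor for each library, and they are called normalized read counts below. The markers of ovarian epithelium were all present (8 of 8 passed the minimum), with a summed level between 435980 and 446690 in DMSO and between 555190 and 567570 in THZ531. The keratins KRT7, KRT8 and KRT18 made up 90.1% to 93.2% of this sum. PAX8, a transcription factor of the lineage, went the other way, from 11272 ± 545 to 1241.5 ± 121 normalized reads (SD, n = 3; log2 fold change -3.18, limma adjusted p = 4.6e-15). MUC16 was also lower in THZ531 but under the threshold (-0.46, limma adjusted p = 1.3e-06). The groups of WT1 overlapped (-0.17, limma adjusted p = 0.19). EPCAM (0.30) and CDH1 (0.38) were higher in THZ531, also under the threshold. Of 6 fibroblast markers 3 passed, with a sum between 1659 and 1914 in DMSO and between 3176 and 3517 in THZ531, while the stromal markers DCN and LUM stayed under 10 in every library. COL1A1 (log2 fold change 1.14, limma adjusted p = 2.8e-10) and COL3A1 (0.60, limma adjusted p = 5.0e-04) increased past the threshold as deposited. The groups of COL1A2 overlapped (0.55, limma adjusted p = 0.16). Of 5 leukocyte markers 2 passed, with sums between 411 and 503.5 in DMSO and between 408 and 490 in THZ531, and CD3E and LYZ stayed under 10. The 3 endothelial markers all passed at low sums, 162 to 199 in DMSO and 213 to 299 in THZ531. VWF increased past the threshold as deposited (0.73, limma adjusted p = 0.0074), while the groups of PECAM1 and CDH5 overlapped. The part of these other markers in the results was not tested.

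Only 3 of the 10 genes changed by at least 1.5-fold with an unadjusted p of at most 0.05, the thresholds of the study. LATS2 increased, and TEAD3 and ANKRD1 decreased. This is 30% of the genes, against 39.5% of all loci tested (15.7% increased and 23.9% decreased), so the share was not above the background of this treatment. At any fold, 8 of the 10 genes had a Benjamini-Hochberg adjusted p of at most 0.05 in limma, 4 upward and 4 downward, against 68.6% of all loci. The DMSO and THZ531 libraries did not overlap for 8 of the 10 genes, against 71.7% of all loci. The median log2 fold change of the 10 genes was -0.01, as was that of all loci tested (-0.01). In bulk RNA, a lower level may reflect fewer cells that express a gene or less RNA per cell, and these cannot be told apart.

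**Figure D1:**
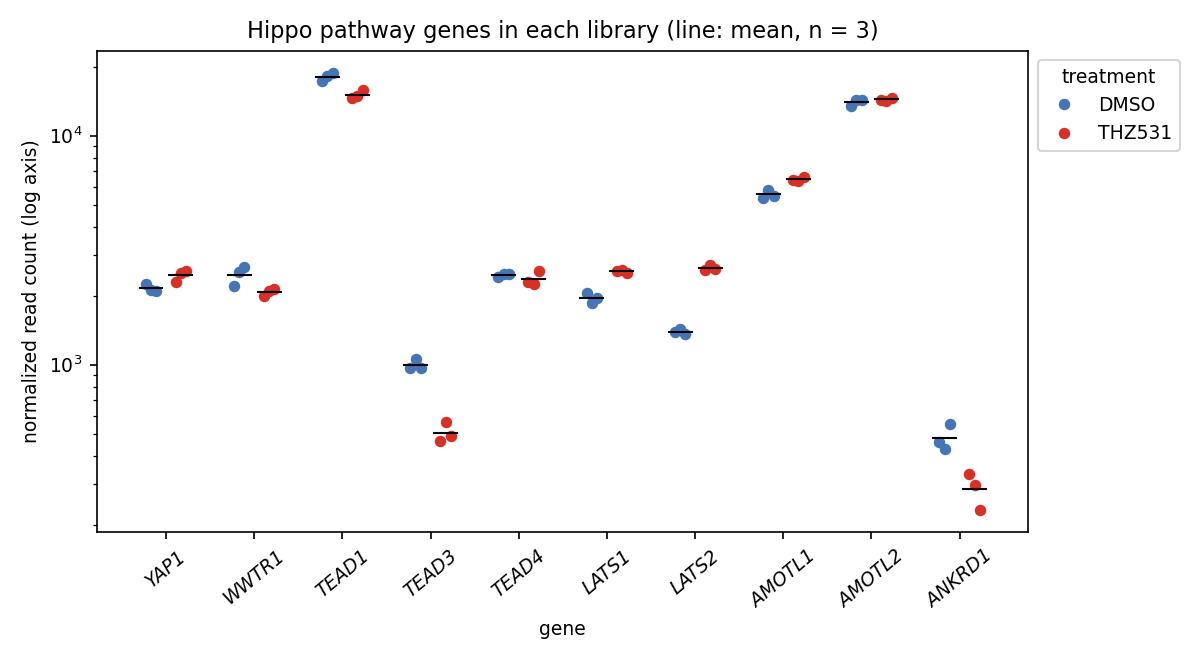
Normalized read count (log axis) of each of the 10 genes in each library, with DMSO in blue, THZ531 in red and a line at the mean of 3 libraries. The libraries of the treatments lie apart for 8 of the 10 genes and overlap for TEAD4 and AMOTL2, and the widest gaps are those of LATS2, TEAD3 and ANKRD1.

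YAP1 and WWTR1, the coactivators at the end of the cascade, differed little between treatments, and in opposite directions as deposited, while both were lower in THZ531 when the libraries were scaled to the same total of reads or to the transcript RPL34. YAP1 (chromosome 11, 102110447 to 102233424 on hg38, plus strand) had 2251, 2126 and 2096 normalized reads in the DMSO libraries and 2301, 2520 and 2565 in the THZ531 libraries. The lowest THZ531 library was thus just above the highest DMSO library. The log2 fold change was 0.19 (standard error, SE, 0.06, limma adjusted p = 0.0065), a 1.14-fold difference that is under the threshold and turned to -0.053 with the same total and -0.30 with RPL34. WWTR1 (chromosome 3, 149517235 to 149736714, minus strand) had 2201, 2534 and 2667 normalized reads in DMSO and 1987, 2090 and 2134 in THZ531. All 3 treated libraries were below the DMSO libraries, with a log2 fold change of -0.25 (SE 0.07, limma adjusted p = 0.003). Their ratio does not depend on how libraries are scaled. The log2 ratio of YAP1 to WWTR1 was 0.03, -0.25 and -0.35 in DMSO and 0.21, 0.27 and 0.27 in THZ531. It was higher in every treated library, by 0.44 on the log2 scale (exact two-sided permutation test, p = 0.1, and no smaller p can be reached with 3 libraries in each group). The same test was made for 6 pairs of paralogs, and adjusted over the 6 pairs the p was 0.1 for each.

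Per kilobase of the MANE transcript, the reference isoform of each gene, the summed level of YAP1 and WWTR1 was 889 ± 32.6 in DMSO and 867 ± 41.1 in THZ531 (SD, n = 3), with libraries that overlapped. Within this sum, YAP1 accounted for 45.0% ± 3.4 in DMSO and for 52.6% ± 0.56 in THZ531 (SD, n = 3). These shares depend on the transcript length taken for each gene. The sum of the coactivators as deposited therefore differed by less than the spread between libraries, while the share of YAP1 was higher in every treated library.

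The TEAD factors carry the DNA-binding domain through which YAP and TAZ reach their targets, and their members differed in response. TEAD3 (chromosome 6, 35473597 to 35497079, minus strand) had 965, 1060 and 970 normalized reads in DMSO and 462, 564 and 489 in THZ531. All treated libraries lay far below all DMSO libraries. TEAD3 fell by 0.99 on the log2 scale (SE 0.09, limma adjusted p = 5.4e-08). TEAD1 (chromosome 11, 12674421 to 12944737, plus strand) had 17301, 18229 and 18857 normalized reads in DMSO and 14631, 14853 and 15851 in THZ531. The groups did not overlap, but the log2 fold change was only -0.26 (SE 0.04, limma adjusted p = 2.9e-05). TEAD4 (chromosome 12, 2959330 to 3040676, plus strand) had 2406, 2494 and 2485 normalized reads in DMSO and 2305, 2250 and 2570 in THZ531. Its groups overlapped, since THZ531 replicate 3 was the highest of all libraries, and its log2 fold change was -0.05 (SE 0.06, limma adjusted p = 0.41). TEAD2, the remaining gene of the family, had a log2 fold change of -0.24 (SE 0.06, limma adjusted p = 0.0019), which is also under the threshold. With RPL34 the log2 fold change of TEAD2 was -0.74, past the threshold.

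The differences within the TEAD family were visible in the ratios inside each library. The log2 ratio of TEAD3 to TEAD4 was -1.32, -1.23 and -1.36 in DMSO and -2.32, -1.99 and -2.39 in THZ531. It was lower in every treated library, by 0.93 on average, so that TEAD3 lost 1.91-fold against TEAD4 (exact two-sided permutation test, p = 0.1, the smallest possible). Against TEAD1, TEAD3 lost 1.65-fold (log2 ratio of TEAD1 to TEAD3 from 4.18 ± 0.09 to 4.90 ± 0.16, SD, n = 3; exact permutation p = 0.1). The ratio of TEAD1 to TEAD4 moved least, from 2.88 ± 0.04 to 2.67 ± 0.05 on the log2 scale (SD, n = 3, exact permutation p = 0.1), with no overlap between the groups.

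**Figure D2:**
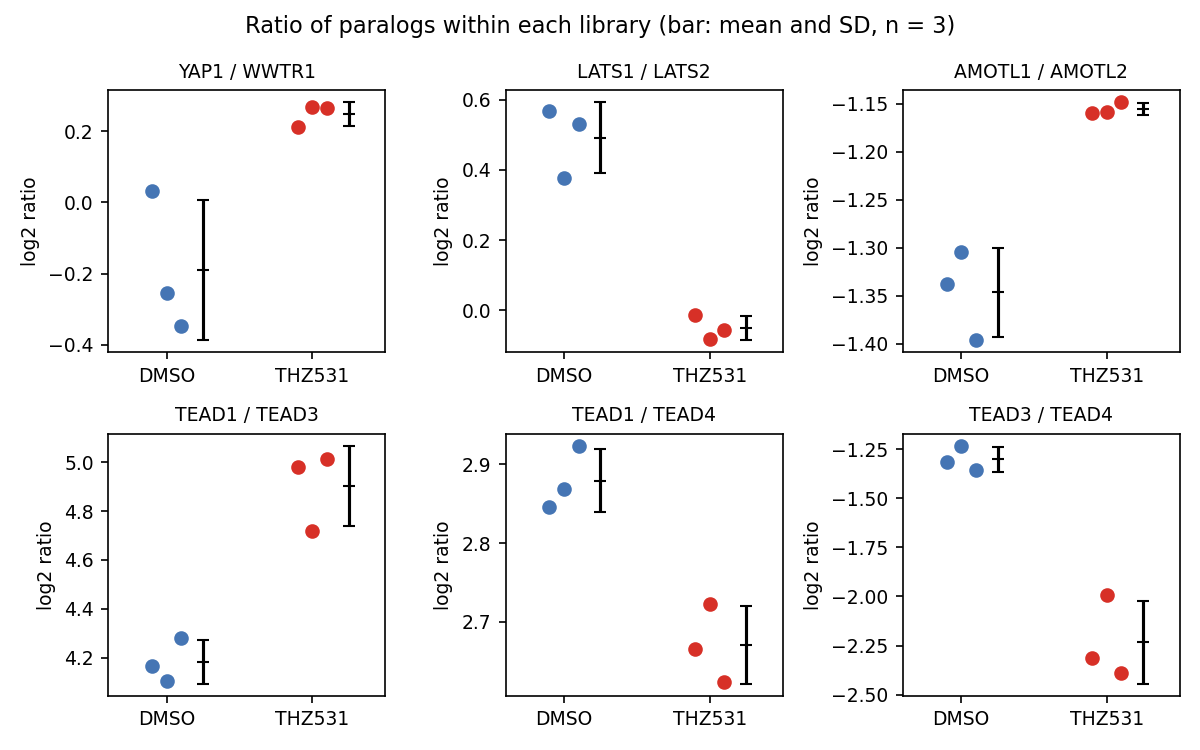
Log2 ratio of the normalized read counts of 2 paralogs within each library, for 6 pairs, with DMSO in blue, THZ531 in red and the mean with its SD (n = 3) beside the points. The vertical axes differ between panels. The groups do not overlap in any of the 6 pairs, and the largest shift is that of TEAD3 against TEAD4. Of all single loci tested, 71.7% did not overlap, and the share among other pairs of genes is not given here. The TEAD pairs share genes and are not separate observations.

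Per kilobase of the MANE transcript, the summed level of TEAD1, TEAD2, TEAD3 and TEAD4 was 4306, 4523 and 4547 in DMSO and 3731, 3731 and 3953 in THZ531. All treated libraries were below all DMSO libraries as deposited. TEAD3 was the smallest part of this sum in both treatments, at 7.5% ± 0.35 in DMSO and 4.45% ± 0.53 in THZ531 (SD, n = 3). The share of TEAD4 was 32.3% ± 0.36 in DMSO and 36.5% ± 1.4 in THZ531, and that of TEAD2 was 17.0% ± 0.17 and 16.9% ± 1.5 (SD, n = 3). TEAD1 remained the largest part, at 43.2% ± 0.76 and 42.2% ± 0.48 (SD, n = 3). The largest relative decrease thus fell on the TEAD gene with the lowest transcript level.

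**Figure D3:**
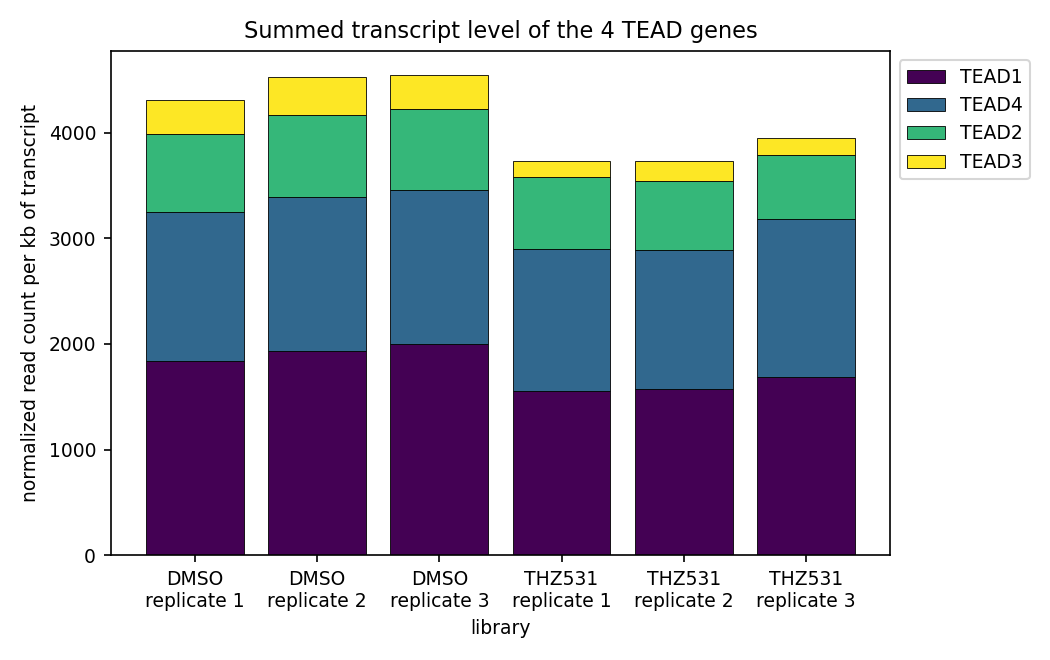
Summed level of the 4 TEAD genes in each library, in normalized read counts per kilobase of the MANE transcript, with TEAD1, TEAD4, TEAD2 and TEAD3 stacked from the bottom. The sum lies between 4306 and 4547 in DMSO and between 3731 and 3953 in THZ531, and the thinnest segment, TEAD3, narrows in all 3 treated libraries.

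LATS1 and LATS2 encode the kinases that phosphorylate YAP and TAZ. LATS2 (chromosome 13, 20973036 to 21061586, minus strand) had 1388, 1435 and 1360 normalized reads in DMSO and 2588, 2733 and 2620 in THZ531. The treated libraries were tightly grouped and far above the DMSO libraries. LATS2 rose 1.90-fold, a log2 fold change of 0.92 (SE 0.05, limma adjusted p = 2.9e-10). LATS1 (chromosome 6, 149658153 to 149718256, minus strand) had 2058, 1865 and 1964 normalized reads in DMSO and 2566, 2580 and 2521 in THZ531. All treated libraries were above the DMSO libraries, but the log2 fold change of 0.38 was under the threshold (SE 0.05, limma adjusted p = 7.0e-06) and turned to -0.11 with RPL34. The log2 ratio of LATS1 to LATS2 was 0.57, 0.38 and 0.53 in DMSO and -0.01, -0.08 and -0.06 in THZ531, a difference of -0.54 (exact two-sided permutation test, p = 0.1, the smallest possible). Per kilobase of the MANE transcript, the sum of both kinases as deposited was 518 ± 10.2 in DMSO and 824 ± 16.3 in THZ531 (SD, n = 3). LATS2 accounted for 48.5% ± 1.7 of this sum in DMSO and 57.9% ± 0.6 in THZ531 (SD, n = 3). The sum depends on the scaling of the libraries and was not computed under the other scalings. The shares depend on the transcript length taken for each gene.

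AMOTL1 and AMOTL2 encode angiomotin-like proteins, which bind YAP and hold it at junctions and in the cytoplasm. AMOTL1 (chromosome 11, 94768342 to 94878190, plus strand) had 5342, 5818 and 5462 normalized reads in DMSO and 6409, 6348 and 6619 in THZ531. The treated libraries were all higher, with a log2 fold change of 0.22 (SE 0.04, limma adjusted p = 2.2e-04), a 1.17-fold difference that turned to -0.021 with the same total and -0.27 with RPL34. AMOTL2 (chromosome 3, 134355345 to 134375417, minus strand) had 13508, 14373 and 14380 normalized reads in DMSO and 14325, 14174 and 14676 in THZ531. Its groups overlapped, and the log2 fold change was 0.03 (SE 0.04, limma adjusted p = 0.46). The log2 ratio of AMOTL1 to AMOTL2 moved from -1.35 ± 0.05 to -1.16 ± 0.01 (SD, n = 3, exact permutation p = 0.1).

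ANKRD1, the only member that is known chiefly as a target of YAP, TAZ and TEAD, encodes a nuclear and sarcomeric ankyrin repeat protein. ANKRD1 (chromosome 10, 90912096 to 90921276, minus strand) had 458, 430 and 549 normalized reads in DMSO and 333, 298 and 232 in THZ531. It had the fewest reads of the 10 genes, between 204 and 688 per library before normalization, and the largest standard error on the log2 scale. The groups did not overlap, and ANKRD1 fell by 0.74 on the log2 scale (SE 0.14, limma adjusted p = 1.5e-04).

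Both CCN2 and CCN1, other classical targets, moved the opposite way to ANKRD1. CCN2, also known as CTGF, encodes a secreted matrix protein. It had 2286, 2110 and 2280 normalized reads in DMSO and 6755, 6451 and 6647 in THZ531, and rose 2.97-fold (log2 fold change 1.57, SE 0.05, limma adjusted p = 2.3e-13). CCN1, or CYR61, a related matrix protein, went from 9289 ± 352 to 12532 ± 422 normalized reads (SD, n = 3). Its log2 fold change of 0.43 (SE 0.04, limma adjusted p = 7.8e-08) stayed under the threshold and was -0.061 with RPL34. The targets most often used as readouts of the pathway therefore did not share a direction as deposited, with CCN2 above 0 and ANKRD1 below 0 under each scaling.

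The proximal promoters of these genes are shown because the TEAD factors bind the sequence CATTCC, which reads GGAATG on the other strand, and because ANKRD1 and CCN2 carry it and moved in opposite directions, so the choice of these promoters used the measured changes. The 250 bases before the RefSeq start of each gene (GRCh38.p14) were searched on both strands for these 6 letters, and 11.9% of 35116 promoters hold at least 1 match. Of the 10 members 8 were matched to this table, TEAD1 and TEAD4 not being among them, and ANKRD1 and YAP1 were the members with a match. For WWTR1 and LATS1 the window searched lies inside the deposited locus and does not reach its start. The sequences run 5′ to 3′ on the strand of the gene, up to the base before the start, and the capitals mark the motif.
ANKRD1, chr10:90921088-90921337, minus strand: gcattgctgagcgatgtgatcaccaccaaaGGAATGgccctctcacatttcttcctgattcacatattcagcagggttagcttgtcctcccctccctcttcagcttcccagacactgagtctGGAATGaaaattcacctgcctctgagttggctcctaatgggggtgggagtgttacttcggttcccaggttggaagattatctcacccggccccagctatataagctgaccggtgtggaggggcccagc
CCN2, chr6:131951373-131951622, minus strand: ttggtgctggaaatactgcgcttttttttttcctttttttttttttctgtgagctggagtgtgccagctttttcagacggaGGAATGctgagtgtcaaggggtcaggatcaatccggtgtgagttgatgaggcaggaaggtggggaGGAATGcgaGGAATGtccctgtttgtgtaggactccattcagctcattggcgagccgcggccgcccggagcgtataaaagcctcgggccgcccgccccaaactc
LATS2, chr13:21061587-21061836, minus strand: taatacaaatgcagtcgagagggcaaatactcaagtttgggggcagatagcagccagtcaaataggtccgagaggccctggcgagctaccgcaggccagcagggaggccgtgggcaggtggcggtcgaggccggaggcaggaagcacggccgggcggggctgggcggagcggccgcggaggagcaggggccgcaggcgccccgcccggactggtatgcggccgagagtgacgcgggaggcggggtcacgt
ANKRD1 holds 2 matches, which begin 220 and 128 bases before the start. CCN2 holds 3 matches, which begin 169, 104 and 95 bases before the start. LATS2, the member that increased, holds none in this window. The YAP1 promoter holds 1, beginning 162 bases before the start. Among the other targets named below, PTPN14 holds 1 and NUAK2 holds 2, and both of these genes increased as deposited, while RBMS3, which decreased, holds none. ARHGEF17, which also decreased, and CCN1 had no matched promoter and were not searched. The targets named below were picked by the size of their changes, and a relation between motif and direction was not tested. A match is a run of letters and not a measured binding site. The RefSeq start lies downstream of the start of the locus in the deposited table for some members and for CCN2. The distance is 33441 bases for WWTR1, 1831 for LATS1, 189 for ANKRD1, 14 for AMOTL1 and 1 for CCN2. The ANKRD1 match at 128 bases before the RefSeq start therefore lies inside the deposited locus. For NUAK2, on the minus strand, the window begins at base 205321746 and the deposited locus ends at 205321791. The NUAK2 match that begins 18 bases before the start thus also lies inside its locus. The window of PTPN14 also reaches into its locus, but its match lies outside.

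The direction of the small changes rested on the scaling of the libraries. Scaling each library to the same total shifted every log2 fold change by about -0.24, and scaling to RPL34, the reference transcript of the study's qPCR assays, by about -0.49, while the upper quartile shifted them by -0.02. The median of all loci moved with it, to -0.25 and -0.50. LATS2 stayed above 0 under each scaling (0.68 with the same total, 0.43 with RPL34, the latter under the threshold). TEAD3 and ANKRD1 stayed past the thresholds under each, at -1.23 and -0.98 with the same total and -1.48 and -1.23 with RPL34. YAP1, AMOTL1 and AMOTL2 were above 0 as deposited and below 0 under both of these scalings, and LATS1 was below 0 under the latter. With RPL34, 0 members increased and 4 decreased, with TEAD1 at -0.76 and WWTR1 at -0.74 joining TEAD3 and ANKRD1. The share of all loci called with RPL34 is not given here. The order of the 10 genes by log2 fold change was the same under all of these scalings. It was bound to be, because each scaling shifts every gene by nearly the same amount.

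**Figure D4:**
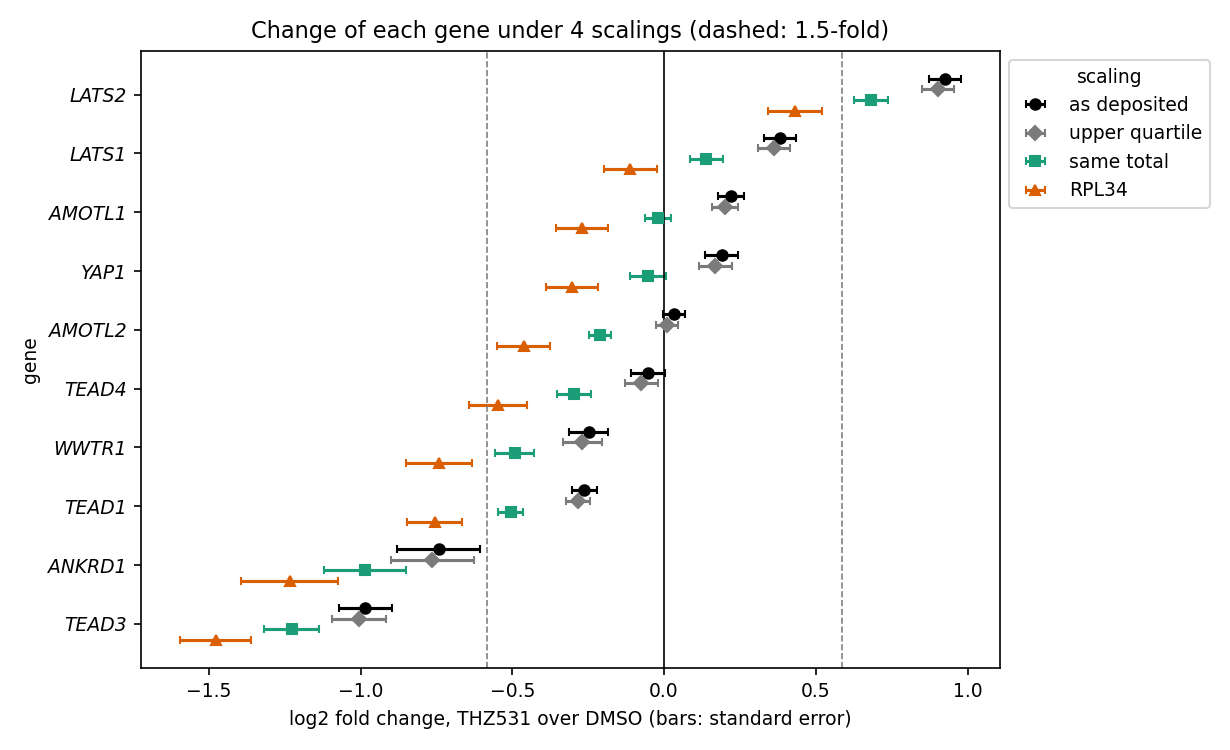
Log2 fold change of each member, THZ531 over DMSO, with its standard error in limma, under 4 scalings of the libraries. Dashed lines mark 1.5-fold. TEAD3 and ANKRD1 lie left of the lower line under each scaling, LATS2 lies right of 0 under each, and YAP1, AMOTL1, AMOTL2 and LATS1 cross 0 between scalings.

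In DMSO the transcript levels per kilobase ran from AMOTL2 (2894 ± 103), TEAD1 (1925 ± 83.2) and TEAD4 (1439 ± 28.5) over AMOTL1 (617 ± 27.6), WWTR1 (490 ± 47.6), YAP1 (399.5 ± 15.2) and TEAD3 (334 ± 17.9) down to ANKRD1 (267.5 ± 34.8), LATS1 (267 ± 13.1) and LATS2 (251 ± 6.8), each as mean ± SD with n = 3. The libraries of neighbours in this order did not overlap, except for ANKRD1 with LATS1 and LATS1 with LATS2. The order also depends on the length taken for each gene. Exons of all GENCODE isoforms together span 8353 bases for WWTR1, against 5037 in the MANE transcript. They span 6311 against 5401 for YAP1 and 2275 against 1710 for TEAD4. Levels by that length were not computed. In THZ531 the 4 highest genes kept their order. LATS2 (477 ± 13.7) moved from the last to the fifth place, overlapping with YAP1 (456 ± 26.2) and above WWTR1 (411 ± 15.0) and LATS1 (347 ± 4.2). TEAD3 (169 ± 17.6) and ANKRD1 (161 ± 28.5) were lowest and overlapped with each other (SD, n = 3).

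The sizes of the genes were set beside their changes, and whether size bears on the change was not tested. The loci ranged from 9.18 kb (ANKRD1) and 20.1 kb (AMOTL2) to 219 kb (WWTR1) and 270 kb (TEAD1). The 3 genes that passed the thresholds were of very different size, 9.18 kb for ANKRD1, 23.5 kb for TEAD3 and 88.6 kb for LATS2. Across the 10 genes, Spearman's correlation between the length of the locus and the log2 fold change was 0.16 and Pearson's r with the log10 length was 0.42, a description of 10 genes measured in the same libraries.

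Other loci of the table lie within or across the members. WWTR1-AS1, a noncoding RNA transcribed from the opposite strand, lies within WWTR1 (chromosome 3, 149657020 to 149661420). It had 68.3, 47.3 and 46.3 normalized reads in DMSO and 110, 134 and 102 in THZ531, and rose with a log2 fold change of 1.10 (SE 0.24, limma adjusted p = 6.2e-04), while WWTR1 itself was lower. LOC645967 overlaps the 5′ end of LATS1 (chromosome 6, 149717621 to 149718893). It had 6.35, 2.78 and 6.38 normalized reads in DMSO and 22.7, 15.9 and 41.0 in THZ531, so that it passed the minimum only through the treated libraries and no test is given. Its log2 fold change was 2.12, and 1.22 when the pseudocount was 10. Leaving out any treated library put it below the minimum. The kit marks the strand, but whether strand was used in counting is not given in the sources used here, so reads shared with the overlapping gene cannot be told apart. Of 5 loci without a symbol that lie wholly within 4 members, 2 passed the minimum. That in TEAD3 spans 1499 bases of intron 3 of the MANE transcript (chromosome 6, 35482003 to 35483501). It had 61.1, 41.8 and 46.3 normalized reads in DMSO and 16.4, 23.9 and 31.9 in THZ531, so it decreased with a log2 fold change of -1.05 (SE 0.35, limma adjusted p = 0.014), in the same direction as TEAD3. That in intron 11 of AMOTL1 (chromosome 11, 94867068 to 94868944) had means of 49.9 ± 5.8 and 49.8 ± 15.0 (SD, n = 3), with overlapping libraries. A further locus without a symbol overlaps the end of AMOTL2 and had 221 ± 17.9 normalized reads in DMSO and 259 ± 24.6 in THZ531 (SD, n = 3, log2 fold change 0.23, limma adjusted p = 0.14).

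Around the members, the genes upstream of YAP and TAZ divided between both directions. Of 48 such genes 7 increased, 8 decreased and 33 were not called (31.2% called, against 39.5% of all loci), and their median log2 fold change was -0.01. Increased and decreased genes numbered 2 and 14 after scaling to the same total, and 0 and 23 after scaling to RPL34. The median log2 fold change of all loci moved to -0.25 and -0.50 under these scalings. The share of all loci called under them is not given here, so these counts have no background beside them. The largest changes were those of TAOK3, a kinase that activates STK3 and STK4, with 1004 ± 24.1 normalized reads in DMSO and 209 ± 14.9 in THZ531 (SD, n = 3; log2 fold change -2.26, adjusted p = 9.0e-12, limma) and of DCHS1, the cadherin ligand of FAT4, with 46.3 ± 13.3 and 9.88 ± 2.9 (SD, n = 3; log2 fold change -2.12, adjusted p = 2.6e-04, limma). STK38, a kinase related to LATS, fell by 1.12 on the log2 scale (adjusted p = 4.8e-11, limma). WWC2, a paralog of the scaffold KIBRA, fell by 1.11 (adjusted p = 2.0e-10, limma). CSNK1E, a casein kinase that phosphorylates YAP for degradation, had the largest increase, from 4276 ± 82.2 to 8647 ± 206 normalized reads (SD, n = 3; log2 fold change 1.02, adjusted p = 3.9e-12, limma), and was no longer called with RPL34 (0.52). The core of the cascade, singled out after the values were seen, stayed under the threshold as deposited. Its log2 fold changes were 0.46 for STK3, 0.44 for STK4, 0.34 for MOB1A, 0.48 for MOB1B, -0.54 for SAV1 and -0.27 for NF2. SAV1 was called decreased after scaling to the same total (-0.78) or to RPL34 (-1.03), and NF2 after scaling to RPL34 (-0.77). With RPL34 the other 4 were also below 0, between -0.15 for MOB1A and -0.012 for MOB1B.

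Of the cofactors that compete with YAP for the TEAD factors, VGLL4, which represses TEAD targets, rose from 1244 ± 24.4 to 2240 ± 70.1 normalized reads (SD, n = 3; log2 fold change 0.85, SE 0.05, limma adjusted p = 1.1e-09). With RPL34 its log2 fold change was 0.36 and no longer passed the threshold. VGLL1, VGLL2 and VGLL3 were not called, with log2 fold changes of 0.14, -0.60 and 0.53 (adjusted p = 0.29, 0.085 and 0.02, limma). Without DMSO replicate 1, VGLL3 was called at 0.71 and VGLL2 at -0.90, and VGLL2 was also called without THZ531 replicate 3 (-0.72), with the same total (-0.84) and with RPL34 (-1.09).

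Of 19 genes commonly used as YAP, TAZ and TEAD targets, ANKRD1 and the other members not counted, 7 increased and 2 decreased (47.4% called, against 39.5% of all loci), and the median log2 fold change was 0.43, against -0.01 for all loci tested. Scaled to the same total, 4 targets were higher and 4 lower past the thresholds, and scaled to RPL34, 2 and 7. The share of all loci called under these 2 scalings is not given here. Besides CCN2, PTPN14, a phosphatase that itself restrains YAP, rose from 3630 ± 82.9 to 7914 ± 76.8 normalized reads (SD, n = 3; log2 fold change 1.12, adjusted p = 1.3e-12, limma), and NUAK2, a kinase of the AMPK family, from 132 ± 17.2 to 263 ± 2.63 (SD, n = 3; log2 fold change 1.00, adjusted p = 1.7e-05, limma), the latter under the threshold with RPL34 (0.51). The decreases were those of ARHGEF17, a guanine nucleotide exchange factor, from 2331 ± 154 to 652 ± 41.5 (SD, n = 3; log2 fold change -1.84, adjusted p = 3.6e-12, limma), and of RBMS3, an RNA-binding protein, from 135 ± 12.7 to 24.6 ± 16.4 (SD, n = 3; log2 fold change -2.75, adjusted p = 9.4e-05, limma). RBMS3 had 32.7, 35.2 and 5.69 normalized reads in the THZ531 libraries, and without THZ531 replicate 3 its log2 fold change was -1.95.

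**Figure D5:**
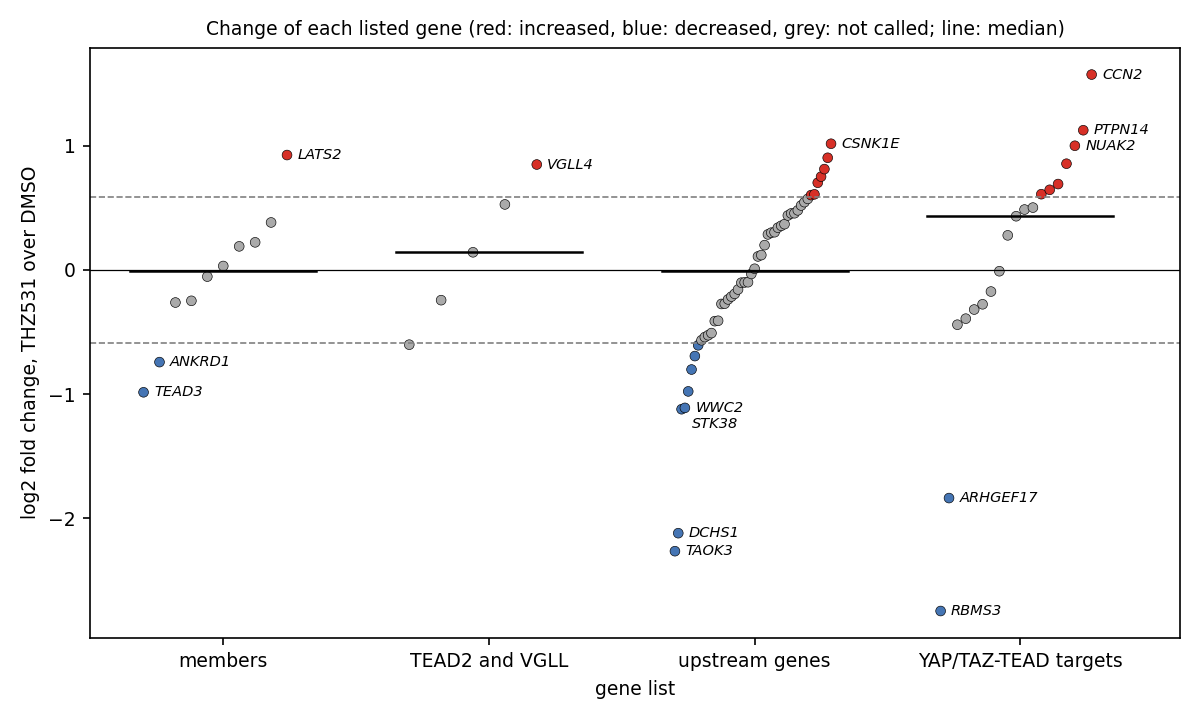
Log2 fold change (THZ531 over DMSO) of each gene of the 4 lists, sorted within a list, with increased genes in red, decreased genes in blue, genes not called in grey and a line at the median of each list. Dashed lines mark 1.5-fold. The medians are -0.01 for the members, 0.14 for TEAD2 with the VGLL genes, -0.01 for the upstream genes and 0.43 for the targets.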

How the data were processed

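RNA-seq libraries of the OVCAR3 line, 3 with DMSO and 3 with THZ531, were analysed. The authors prepared stranded polyA plus libraries, mapped reads to hg38 with STAR (2.7.5a in the submitters' processing notes, another release in the paper), counted them with featureCounts on FAST DB loci and deposited a signal per locus, the read count divided by a DESeq2 size factor, with no correction for length. In each library 100% of the deposited values were whole multiples of 1 step (tolerance 0.01), so the reads were recovered. The separate repeats are biological according to the design text.

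Values were tested as log2(value + 1) with limma 3.58.1 (trended variance, no covariates, R 4.3.3) over the 17568 loci that reached 10 in 3 or more libraries. A call required a 1.5-fold change with unadjusted p of 0.05 or less, and Benjamini-Hochberg adjusted p-values cover all loci tested. On this scale the change of low genes is understated. edgeR 4.0.16 (quasi-likelihood) and DESeq2 1.42.0 were run on the recovered reads, and all tools were tested on simulated data. Paralog ratios were compared by exact permutation (scipy 1.17.1). Levels per kilobase used MANE transcripts of GENCODE v44. Alternatives were pseudocounts of 0.1 and 10, no minimum and a minimum of 50, 3 scalings, the replicate block, adjusted p, and leaving out each library.

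The members, lists and tests were chosen with earlier results of these data known. The genes named are the members, TEAD2, the VGLL genes, CCN1 and CCN2, the 5 largest called changes of the upstream and target lists, and loci within or across members, with the core of the cascade added after its values were seen.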

Additional observations from a re-analysis of the deposited data

How the results depend on the processing

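Scaling was the choice that moved the counts. With RPL34, members increased and decreased numbered 0 and 4, upstream genes 0 and 23, and targets 2 and 7, and with the same total upstream genes numbered 2 and 14 and targets 4 and 4. The median log2 fold change of all loci also moved, to -0.50 with RPL34 and -0.25 with the same total. The share of all loci called under these scalings is not given here. Only the named genes, without the core of the cascade and the cell type markers, were followed one by one under every alternative. Among them, log2 fold changes that changed sign with the same total were those of YAP1 (-0.053), AMOTL1 (-0.021), AMOTL2 (-0.21) and VGLL1 (-0.10). With RPL34 they were those of YAP1 (-0.30), LATS1 (-0.11), AMOTL1 (-0.27), AMOTL2 (-0.46), VGLL1 (-0.35) and CCN1 (-0.061). The locus in AMOTL1, near 0 throughout, turned to 0.0028 in DESeq2, and to 0.06 without DMSO replicate 2, 0.10 without THZ531 replicate 1 and 0.06 without THZ531 replicate 3. VGLL2 was called by edgeR (-0.69) and DESeq2 (-0.67). All other counts stayed within 1.5 times under the other alternatives. Without each library in turn, members increased and decreased numbered 1 and 2 in every case, upstream genes 6 to 8 and 7 to 10, and targets 7 and 2. The log2 fold change was then between 0.90 and 0.95 for LATS2, between -1.07 and -0.92 for TEAD3 and between -0.85 and -0.60 for ANKRD1.

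Deviations of libraries with the same replicate number correlated at 0.0017, 0.019 and -0.039, so the numbers were not taken to pair the libraries, and not every library correlated best with its own number. With the replicate block the counts were 1 and 2 for members, 7 and 8 for upstream genes and 7 and 2 for targets, as without it. Permuting the signs of paired differences in the replicate block gave p = 0.25 for each paralog ratio (exact permutation test, the smallest it can give), with differences of 0.44 for YAP1 to WWTR1, -0.54 for LATS1 to LATS2, 0.19 for AMOTL1 to AMOTL2, 0.72 for TEAD1 to TEAD3, -0.21 for TEAD1 to TEAD4 and -0.93 for TEAD3 to TEAD4. The few reads of LOC645967 and of the loci inside introns limit their precision.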
